A study of Mus musculus with 12 samples.

Results

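The 9 genes *Acr*, *Acrv1*, *Acrbp*, *Spaca1*, *Zpbp*, *Zpbp2*, *Izumo1*, *Spam1* and *Crisp2* encode proteins of the contents and membranes of the acrosome, the secretory cap over the sperm nucleus. They were taken by name, and every probeset whose annotation gives exactly 1 of them was used, which makes 12 probesets of the 45037 tested and 9 of 18161 genes. A probeset shared by *Acrbp* and *Ing4* was not used. Expression was measured in male germ cells of PWD/Ph (hereafter PWD), an inbred strain of *M. m. musculus* origin, and of C57BL/6J (hereafter B6), a laboratory strain of mainly *M. m. domesticus* origin, all males of 8 to 10 weeks. Flow sorting separated testicular cells into prepachytene spermatocytes, which run from leptotene to early pachytene, later spermatocytes of mid and late pachytene with diplotene, called pachytene cells here, and spermatids. Each of the 6 groups had 2 arrays, 12 arrays in all. The design text gives duplicates from 2 animals without tying a replicate number to an animal, so that p-values measure the spread between these arrays.

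The genes are protein-coding. In GRCm38.p6 *Acr* lies at chr15:89568326-89578853, *Acrv1* at chr9:36693220-36698845, *Acrbp* at chr6:125049927-125063265, *Spaca1* at chr4:34024872-34050067, *Zpbp* at chr11:11279624-11464223, *Zpbp2* at chr11:98551097-98558665, *Izumo1* at chr7:45621811-45627242, *Spam1* at chr6:24791188-24801048 and *Crisp2* at chr17:40764734-40794146.

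The acrosome is assembled from the Golgi apparatus in round spermatids and holds enzymes and binding proteins that are released when the sperm meets the egg. Many of its genes are transcribed in advance, some already in pachytene spermatocytes, and their transcripts can be kept until the protein is made. The matrix of the granule, its membranes and the surface proteins that meet the zona pellucida and the egg membrane are built from different members of the set.

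Values are log2 expression values of Affymetrix Mouse Genome 430 arrays, normalized by the authors with GCRMA, and a difference of 1 is a 2-fold change. They are not compared between genes. Across all probesets, the correlation between the replicates ran from 0.987 in PWD prepachytene cells to 0.996 in B6 pachytene cells. Markers followed the labels in that all 15 genes of early meiosis fell into pachytene cells (median difference -3.78), 11 of 14 pachytene and diplotene genes rose there and all 15 late spermatid genes rose from pachytene cells to spermatids. A background level of 5.35 was set from 60 probesets of 32 genes of other organs, some of which read well above the rest here, so that it is a high mark. By their best probeset 8 of the 9 genes lay above it in every group, and *Spam1* lay below it in B6 prepachytene cells. Marker genes of late spermatids were present in the prepachytene arrays: all 15 were above the background level there, and their summed level was 16.06 to 16.13 in B6 and 16.84 to 17.08 in PWD, against 14.48 to 15.17 in pachytene arrays and 17.33 to 18.11 in spermatids. Of 12 Sertoli cell genes, 5 in B6 and 7 in PWD were above it in prepachytene cells, with summed levels of 14.56 to 15.24, against 8.69 to 11.24 in the other arrays, and none of 4 Leydig cell genes was. PWD pachytene replicate 1 stood apart from replicate 2 in late genes, and results that rest on it are given without it as well.

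**Figure D1:**
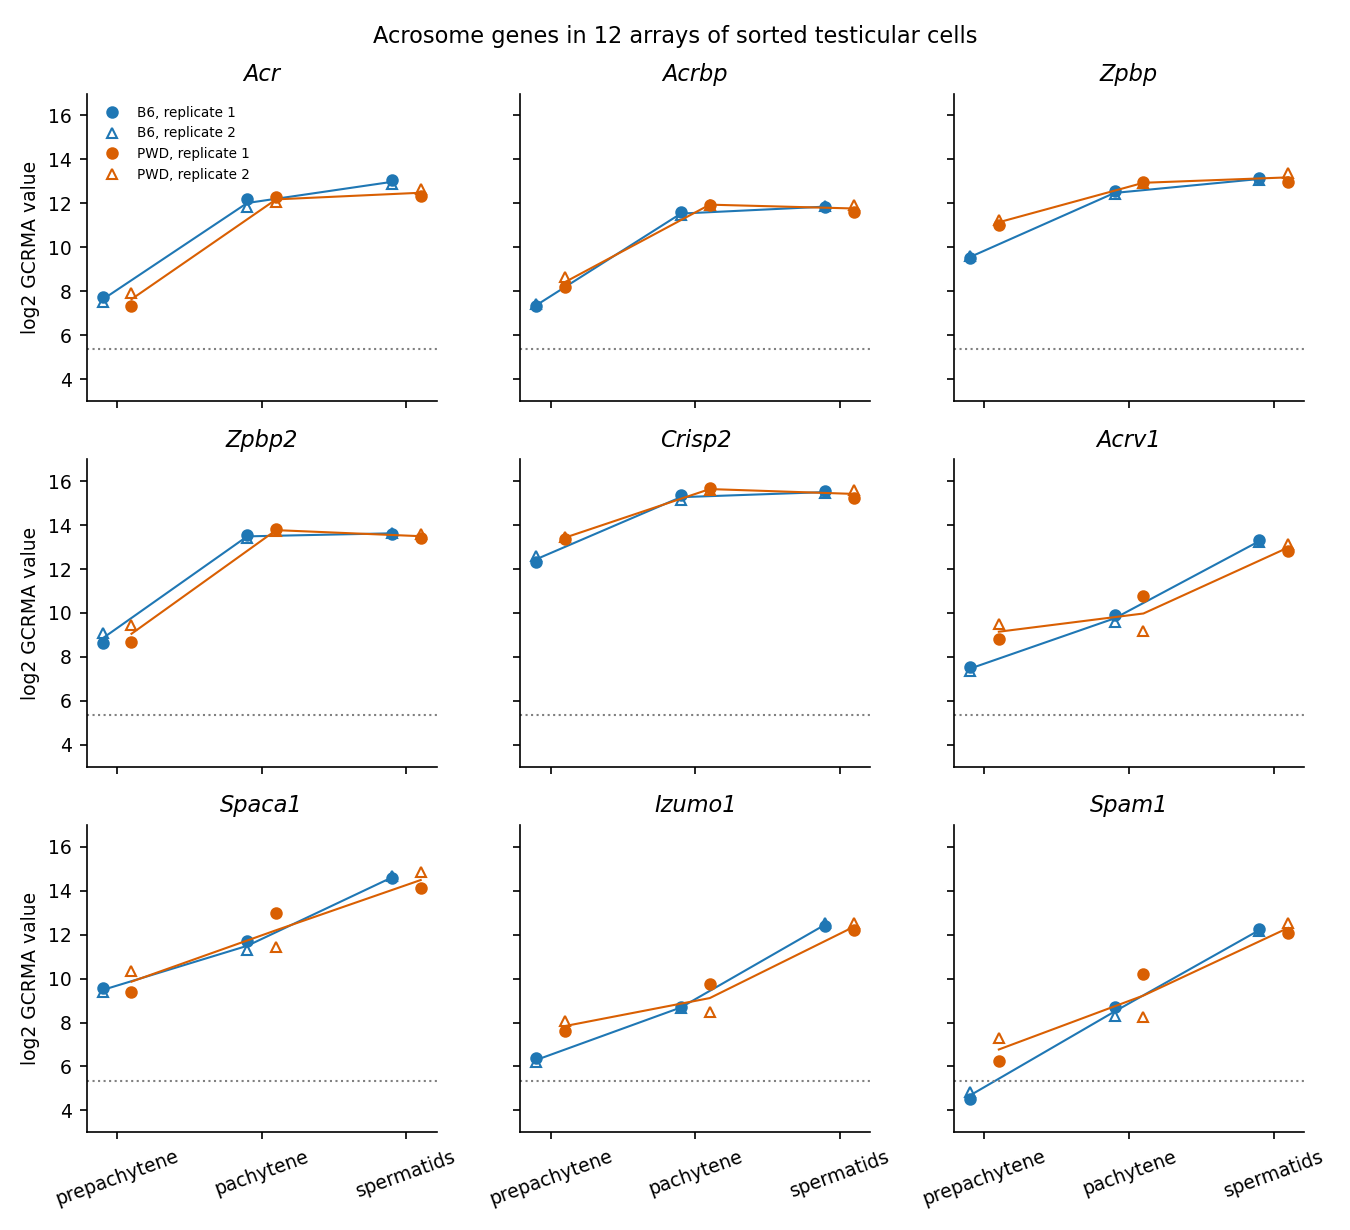
Log2 GCRMA value (y axis) of the 9 acrosome genes in prepachytene spermatocytes, pachytene spermatocytes and spermatids (x axis), with 1 point for each of the 12 arrays, lines through the means of the 2 arrays of a group and a dotted line at the background level of 5.35. *Acr*, *Acrbp*, *Zpbp*, *Zpbp2* and *Crisp2* rise steeply into pachytene and then change by at most 0.63 over both strains, whereas *Acrv1*, *Spaca1*, *Izumo1* and *Spam1* climb again into spermatids.

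All 9 genes rose from prepachytene to pachytene spermatocytes, by 1.56 (*Acrv1*) to 4.68 (*Zpbp2*) on the log2 scale over both strains, where 44.3% of all probesets rose. From pachytene spermatocytes to spermatids 6 of them rose, against 12.1% of all probesets, 4 by 2.70 to 3.52 (*Acrv1*, *Spaca1*, *Izumo1* and *Spam1*) and the other two by 0.44 and 0.63 (*Zpbp* and *Acr*), and the other three (*Acrbp*, *Zpbp2* and *Crisp2*) lay between -0.07 and 0.07. With each array centred on the median of probesets above the background level, *Acrbp* (0.33) and *Crisp2* (0.27) rose as well, so that 8 of 9 were called. In sorted bulk samples, fewer cells of a type and less RNA per cell cannot be told apart.

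The genes of the acrosomal matrix come first. *Acr* encodes acrosin, the serine protease of the acrosomal matrix. It was at 7.72 and 7.53 in B6 and at 7.34 and 7.93 in PWD prepachytene arrays, at 12.20 and 11.83 in B6 and 12.30 and 12.06 in PWD pachytene arrays, and at 13.06 and 12.89 in B6 and 12.32 and 12.64 in PWD spermatids. The 3 populations did not overlap in *Acr*, and the strains overlapped in the first 2 of them. It rose 22.1-fold into pachytene (log2 4.47 ± 0.16 SE, adjusted p = 1.42e-07 from limma) and 1.55-fold into spermatids (0.63 ± 0.16, adjusted p = 0.0184). The rise into spermatids missed the threshold without any one of 4 arrays (0.54 to 0.59, adjusted p = 0.0614 to 0.068 from limma), which were B6 and PWD pachytene replicate 2, B6 spermatids replicate 1 and PWD spermatids replicate 2.

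*Acrbp* encodes the proacrosin-binding protein, which holds the acrosin precursor in the matrix. Its values were 7.32 and 7.40 in B6 and 8.18 and 8.66 in PWD prepachytene cells, 11.60 and 11.47 in B6 and 11.94 and 11.94 in PWD pachytene cells, and 11.83 and 11.87 in B6 and 11.62 and 11.92 in PWD spermatids. Prepachytene arrays lay far below the rest, and pachytene and spermatid arrays overlapped. *Acrbp* rose 14.4-fold into pachytene (3.85 ± 0.12 SE, adjusted p = 7.64e-08 from limma), and its change into spermatids was 0.07 (95% interval -0.22 to 0.36). A second probeset of *Acrbp* had the same course, with group means of 6.31 and 7.12 in B6 and PWD prepachytene, 11.23 and 11.49 in pachytene and 11.64 and 11.17 in spermatids.

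*Crisp2* encodes a cysteine-rich secretory protein of the acrosome and the sperm tail. It was at 12.32 and 12.57 in B6 and 13.38 and 13.48 in PWD prepachytene arrays, 15.39 and 15.15 in B6 and 15.69 and 15.58 in PWD pachytene arrays, and 15.54 and 15.46 in B6 and 15.24 and 15.60 in PWD spermatids. It was thus high from the first population on, and pachytene and spermatid arrays overlapped. The rise into pachytene was 5.72-fold (2.52 ± 0.10 SE, adjusted p = 2.4e-07 from limma) and the change into spermatids 0.00 (95% interval -0.23 to 0.24).

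*Acrv1* encodes SP-10, an acrosomal protein that stays with the matrix after its release. It was at 7.56 and 7.37 in B6 prepachytene arrays, 9.92 and 9.59 in B6 pachytene arrays and 13.32 and 13.21 in B6 spermatids. In PWD the values were 8.80 and 9.49, then 10.75 and 9.20, then 12.82 and 13.13. B6 climbed in 2 clear steps, whereas the prepachytene and pachytene arrays of PWD overlapped. Over both strains *Acrv1* rose 2.95-fold into pachytene (1.56 ± 0.32 SE, adjusted p = 0.00348 from limma) and 9.55-fold into spermatids (3.26 ± 0.32, adjusted p = 9.47e-05). In PWD alone the change into pachytene was 0.83 (95% interval -0.23 to 1.88, adjusted p = 0.147), 0.05 without pachytene replicate 1 and 1.61 (adjusted p = 0.00477) without replicate 2. With arrays centred on the median it was 1.05 (adjusted p = 0.0436).

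The zona pellucida binding proteins are encoded by *Zpbp* and its paralog *Zpbp2*, and both are needed for a normally shaped acrosome. *Zpbp* was at 9.52 and 9.59 in B6 and 11.03 and 11.25 in PWD prepachytene arrays, 12.54 and 12.40 in B6 and 12.97 and 12.90 in PWD pachytene arrays, and 13.15 and 13.07 in B6 and 12.97 and 13.39 in PWD spermatids. The PWD prepachytene arrays stood well above those of B6. *Zpbp* rose 5.13-fold into pachytene (2.36 ± 0.11 SE, adjusted p = 3.92e-07 from limma) and 1.36-fold into spermatids (0.44 ± 0.11, adjusted p = 0.0126). *Zpbp2* was at 8.61 and 9.08 in B6 and 8.67 and 9.43 in PWD prepachytene arrays, 13.57 and 13.41 in B6 and 13.83 and 13.71 in PWD pachytene arrays, and 13.61 and 13.64 in B6 and 13.40 and 13.58 in PWD spermatids. It rose in 1 step, and the strains overlapped in prepachytene cells, while both PWD arrays lay above both B6 arrays in pachytene cells and below them in spermatids. The rise into pachytene was 25.6-fold (4.68 ± 0.18 SE, adjusted p = 1.62e-07 from limma), the largest of the 9 in this comparison, and the change into spermatids was -0.07 (95% interval -0.48 to 0.34). A second probeset of *Zpbp* (2.52 to 4.18) and one of *Zpbp2* (2.45 to 2.86) lay below the background level on all arrays. In the mean of both *Zpbp* probesets the change into spermatids was 0.00 and was not called.

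The remaining genes encode proteins of the membranes and of egg contact. *Spaca1* encodes a protein of the inner acrosomal membrane that is needed to form the acrosome. It was at 9.56 and 9.40 in B6 prepachytene arrays, 11.70 and 11.28 in B6 pachytene arrays and 14.56 and 14.65 in B6 spermatids, and in PWD at 9.38 and 10.35, then 12.97 and 11.43, then 14.14 and 14.83. The populations did not overlap, and the strains overlapped in each. *Spaca1* rose 4.52-fold into pachytene (2.18 ± 0.36 SE, adjusted p = 0.00111 from limma) and 6.49-fold into spermatids (2.70 ± 0.36, adjusted p = 0.000514).

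*Izumo1* encodes the sperm protein that binds Juno on the egg and is required for fusion. Its values were 6.41 and 6.19 in B6 prepachytene arrays, 8.70 and 8.67 in B6 pachytene arrays and 12.39 and 12.54 in B6 spermatids. In PWD they were 7.61 and 8.07, then 9.74 and 8.48, then 12.19 and 12.55. The spermatids of both strains lay far above all other arrays. *Izumo1* rose 3.56-fold into pachytene (1.83 ± 0.26 SE, adjusted p = 0.000471 from limma) and 11.5-fold into spermatids (3.52 ± 0.26, adjusted p = 2.17e-05).

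*Spam1* encodes PH-20, a hyaluronidase on the sperm surface and the acrosomal membrane that helps sperm through the cumulus. It was at 4.52 and 4.84 in B6 prepachytene arrays, 8.71 and 8.29 in B6 pachytene arrays and 12.25 and 12.16 in B6 spermatids. PWD had 6.25 and 7.30, then 10.22 and 8.24, then 12.06 and 12.55. It started lowest in B6 prepachytene cells, where both arrays lay below the background level. Over both strains the difference was 3.14 ± 0.43 SE into pachytene (adjusted p = 0.000345 from limma) and 3.39 ± 0.43 into spermatids (adjusted p = 0.000364), a 10.5-fold rise. Against the background level in place of the dim B6 prepachytene arrays, B6 pachytene cells were at least 8.85-fold and B6 spermatids at least 115-fold higher.

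Among all 45037 probesets 48.3% were higher in spermatids than in prepachytene cells, where all 9 acrosome genes were higher by 2.52 (*Crisp2*) to a fitted 6.53 (*Spam1*). The median difference of the 9 genes was 2.52 into pachytene and 0.63 into spermatids, against 0.07 and 0.00 over all probesets and -0.05 and -0.38 over the 14962 probesets above the background level. Within B6 all 9 rose into pachytene (16.8% of all probesets) and 6 into spermatids (12.1%). Within PWD 8 rose into pachytene (40.5%) and 4 into spermatids (8.88%), namely *Acrv1*, *Spaca1*, *Izumo1* and *Spam1*. The B6 rises into spermatids of *Acr* (0.96) and *Zpbp* (0.63) had values of 0.30 and 0.25 in PWD, and the difference between the strains was not called for either (adjusted p = 0.222 and 0.259 from limma). In PWD both were called when quantile normalization was repeated or arrays were centred, and in B6 both missed the threshold without pachytene replicate 2, spermatids replicate 1 or spermatids replicate 2. *Spaca1* missed it into pachytene in B6 without pachytene replicate 1 or either prepachytene replicate.

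The share of the log2 rise from prepachytene cells to spermatids that was already reached in pachytene cells set 5 genes apart from 4. It was 82.0% in B6 and 93.8% in PWD for *Acr*, 93.0% and 105% for *Acrbp*, 82.2% and 88.0% for *Zpbp*, 97.1% and 106% for *Zpbp2* and 92.4% and 111% for *Crisp2*. In these 5 genes most of the log2 rise came before spermatids, although *Acr* (0.96) and *Zpbp* (0.63) still rose into spermatids in B6. The share was 39.5% and 21.7% for *Acrv1*, 39.3% and 50.6% for *Spaca1*, 38.7% and 28.1% for *Izumo1* and 50.8% and 44.4% for *Spam1*. The B6 share of *Spam1* rests on prepachytene arrays below the background level, and with that level in their place it is at least 45.9%. The split follows from the differences above and is a description. Each share starts from the prepachytene arrays, where the summed level of late spermatid markers was 16.06 to 16.13 in B6 and 16.84 to 17.08 in PWD. The part of this in the shares was not tested. In PWD the share of *Acrv1*, *Spaca1*, *Izumo1* and *Spam1* depended on the array: *Acrv1* was at 41.9% by pachytene replicate 1 and 1.40% by replicate 2, and *Spaca1* at 67.2% and 34.0%.

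**Figure D2:**
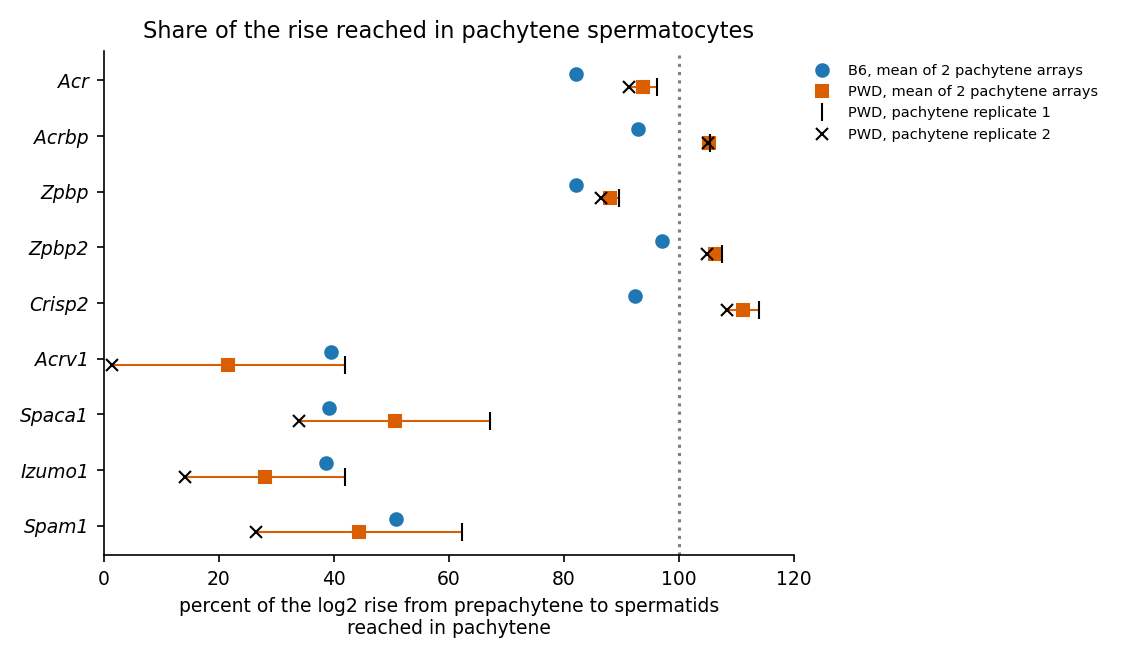
Percent of the log2 rise from prepachytene spermatocytes to spermatids that was reached in pachytene spermatocytes (x axis) for the 9 genes (y axis), for B6 (circles) and PWD (squares), with the value by each PWD pachytene array alone joined by a line. *Acr*, *Acrbp*, *Zpbp*, *Zpbp2* and *Crisp2* lie between 82.0% and 111%, and *Acrv1*, *Spaca1*, *Izumo1* and *Spam1* between 21.7% and 50.8% by their means, where the highest, *Spam1* in B6, is at least 45.9% with the background level in place of its dim prepachytene arrays.

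Over the 12 arrays, with each profile centred on its own mean, *Acrv1* and *Izumo1* differed by 0.26 (root mean square, log2), *Zpbp* and *Crisp2* by 0.26 and *Acr* and *Zpbp2* by 0.35, whereas the paralogs *Zpbp* and *Zpbp2* differed by 1.09 and *Spam1* and *Crisp2*, the least alike, by 1.84. Both paralogs rose into pachytene, *Zpbp2* by 4.68 and *Zpbp* by 2.36, and into spermatids *Zpbp* rose by 0.44 while *Zpbp2* was at -0.07. Among 8849 other genes above the background level the 3 nearest to *Acr* were *Tent5c*, *Cfap61* and *4930471M09Rik* (0.23 to 0.24). Those nearest to *Acrbp* were *Marchf10*, *Ttc29* and *Insl6* (0.14 to 0.18), to *Zpbp* *Plxna2*, *Usp2* and *Lypd4* (0.14 to 0.16), to *Zpbp2* *Fahd1*, *Xkr8* and *Odf4* (0.22) and to *Crisp2* *Sccpdh*, *Dkkl1* and *Catsper2* (0.12 to 0.14). *Dkkl1* encodes another acrosomal protein. Those nearest to *Acrv1* were *Catsper1*, *4930578I06Rik* and *Spata46* (0.19 to 0.22), to *Izumo1* *Ccdc182*, *4930578I06Rik* and *Zfp474* (0.21 to 0.23), to *Spaca1* *Rnf151*, *Fsip1* and *Tssk1* (0.26 to 0.30) and to *Spam1* *Nipsnap3a*, *Lyzl4* and *Sox5* (0.27 to 0.34). The median gene was 1.59 to 2.96 away from a member.

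Promoter sequences help to see what the genes that climb together or apart share in letters. RefSeq (GRCm38.p6) gave 9 promoter sequences for 8 of the 9 genes, with *Acr* not among them, each with 250 bases before the transcription start and 50 from it on. The full cAMP response element TGACGTCA, bound by CREM in spermatids, was found in *Izumo1* alone and in 1.79% of 32851 promoters. Its half-site TGACG on either strand was found in *Acrbp*, *Izumo1*, *Spaca1* and *Zpbp2*, and in 20.81% of all promoters. The full element of *Izumo1* holds a half-site on each strand. The X-box half-site GTTGCC was found in *Acrbp* (12.51% of all promoters), the repeat ACACAC in *Acrv1* (17.39%) and the MYB core GGCAGTT in none of the 9 promoters (4.12%). The promoters of *Spam1*, *Zpbp* and *Crisp2* held none of these letters. The sequences with a match are shown 5′ to 3′ with the matches in capitals (reverse matches as they read on the gene's strand).
Acrbp promoter, chr6:125049677-125049976, plus strand: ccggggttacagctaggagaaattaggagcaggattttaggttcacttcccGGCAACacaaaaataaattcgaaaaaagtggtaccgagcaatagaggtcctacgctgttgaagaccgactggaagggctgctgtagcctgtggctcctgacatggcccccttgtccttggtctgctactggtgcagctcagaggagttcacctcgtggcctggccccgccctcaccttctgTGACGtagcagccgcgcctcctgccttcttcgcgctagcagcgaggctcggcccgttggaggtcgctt
Zpbp2 promoter, chr11:98550847-98551146, plus strand: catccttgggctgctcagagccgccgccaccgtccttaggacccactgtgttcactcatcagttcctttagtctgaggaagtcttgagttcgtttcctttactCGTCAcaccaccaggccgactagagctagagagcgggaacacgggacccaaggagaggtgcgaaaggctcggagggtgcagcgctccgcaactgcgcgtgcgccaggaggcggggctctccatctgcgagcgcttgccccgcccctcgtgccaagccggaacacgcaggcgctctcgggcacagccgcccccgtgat
Izumo1 promoter, chr7:45621561-45621860, plus strand: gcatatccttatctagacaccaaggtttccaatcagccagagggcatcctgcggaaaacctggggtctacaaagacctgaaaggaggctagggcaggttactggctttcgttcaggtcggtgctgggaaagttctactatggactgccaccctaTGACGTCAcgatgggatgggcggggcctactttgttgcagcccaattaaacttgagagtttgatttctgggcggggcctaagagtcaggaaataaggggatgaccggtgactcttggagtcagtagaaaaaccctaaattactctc
Spaca1 promoter, chr4:34050016-34050315, minus strand: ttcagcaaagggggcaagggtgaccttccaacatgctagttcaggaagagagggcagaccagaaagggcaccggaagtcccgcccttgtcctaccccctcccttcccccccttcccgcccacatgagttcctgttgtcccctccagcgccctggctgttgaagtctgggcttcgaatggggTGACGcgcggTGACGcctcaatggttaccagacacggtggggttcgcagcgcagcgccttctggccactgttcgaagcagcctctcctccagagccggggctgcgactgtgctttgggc
Acrv1 promoter, chr9:36692970-36693269, plus strand: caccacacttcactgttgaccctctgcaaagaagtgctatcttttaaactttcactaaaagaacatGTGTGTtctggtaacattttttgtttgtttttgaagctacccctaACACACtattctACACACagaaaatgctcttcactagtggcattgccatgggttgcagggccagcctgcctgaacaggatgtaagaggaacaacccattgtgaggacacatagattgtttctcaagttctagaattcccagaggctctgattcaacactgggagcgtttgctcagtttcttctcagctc

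Counted from the start site as 0, the element of *Izumo1* begins at -96, the half-sites of *Spaca1* at -69 and -59, that of *Acrbp* at -18 and that of *Zpbp2* at -147. Half-sites thus lay both in genes that levelled off in pachytene cells (*Acrbp* and *Zpbp2*) and in genes that climbed into spermatids (*Izumo1* and *Spaca1*). A match of letters does not show that a factor binds there, and binding was not measured.

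The largest gap between the 2 arrays of a group was in PWD pachytene cells, in the 4 genes that climb late. Replicate 1 exceeded replicate 2 by 1.55 in *Acrv1*, 1.54 in *Spaca1*, 1.26 in *Izumo1* and 1.98 in *Spam1*, against 0.01 to 0.24 in *Acr*, *Acrbp*, *Zpbp*, *Zpbp2* and *Crisp2*. Late spermatid markers differed in the same direction: 11 of 15 were higher in replicate 1, with a median difference of 0.85, and so were 22 of 28 other acrosome and gamete interaction genes (median 1.09). The median of pachytene and diplotene markers differed by 0.05. Whether spermatids in replicate 1 have a part in this was not tested. In PWD prepachytene cells replicate 2 was higher in all 9 genes, by 0.10 (*Crisp2*) to 1.05 (*Spam1*), and in 14 of 15 late spermatid markers. In PWD spermatids replicate 2 was higher in all 9 genes as well, by 0.18 to 0.69, and in all 15 markers. Over probesets above the background level the median of replicate 1 minus replicate 2 was -0.23 in PWD spermatids and -0.05 in PWD prepachytene cells. In B6 pachytene cells replicate 1 was higher in all 9 genes, by 0.02 to 0.42, and that median was 0.13.

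**Figure D3:**
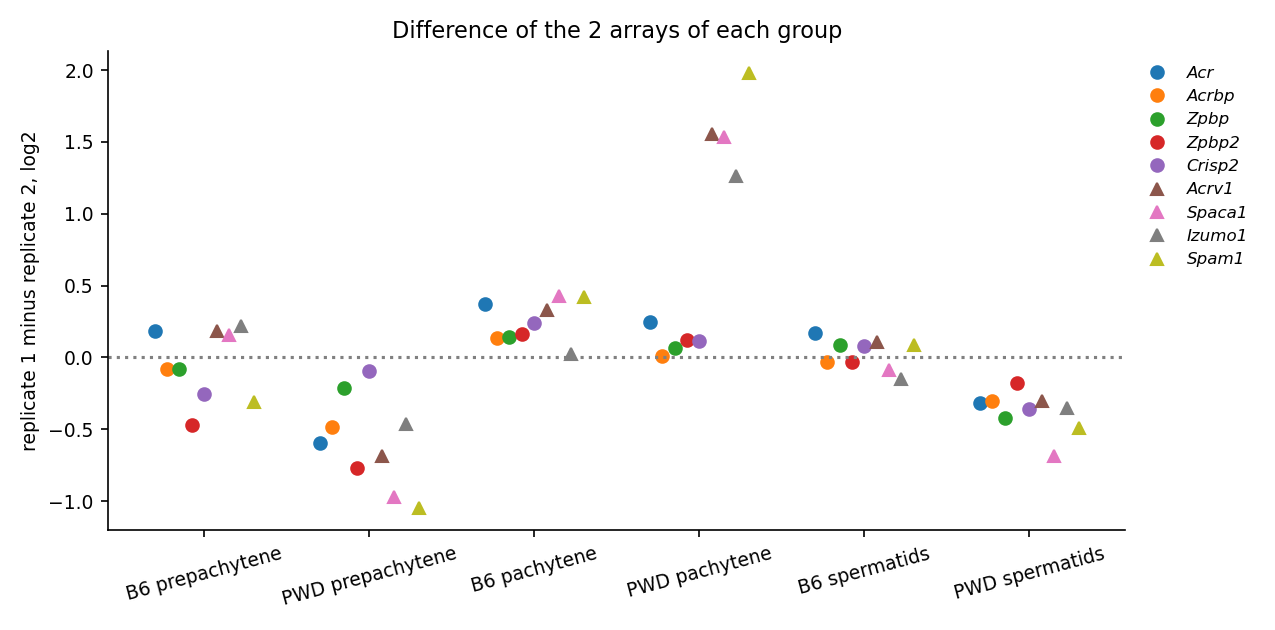
Log2 difference between replicate 1 and replicate 2 (y axis) of each of the 6 groups (x axis), with 1 point per gene, circles for the 5 genes that made most of their rise into pachytene and triangles for the 4 that climb by 2.70 or more into spermatids. In PWD pachytene cells the triangles lie between 1.26 and 1.98 and the circles between 0.01 and 0.24.

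Without PWD pachytene replicate 1, *Spaca1* (1.57, adjusted p = 0.0207 from limma) and *Spam1* (1.46, adjusted p = 0.0283) still rose into pachytene in PWD, whereas *Izumo1* was at 0.64 (adjusted p = 0.0615; 1.27 and 0.018 with it). The rises of the 4 late genes from pachytene cells to spermatids of PWD were larger without it, from 3.05 (*Spaca1*) to 4.07 (*Spam1*) in place of 2.28 (*Spaca1*) to 3.26 (*Izumo1*). Each of the 4 passed the threshold with and without this array. The rise of *Spaca1* was 1.52 (adjusted p = 0.0535 from limma) without PWD pachytene replicate 2, and it also missed the threshold without PWD spermatids replicate 2. The rises of *Izumo1* and *Spam1* into pachytene in PWD missed it without PWD prepachytene replicate 1.

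The comparison of PWD with B6 set the strains side by side within sorted populations of the same label. In prepachytene spermatocytes 6 of 9 genes were higher in PWD, against 11.9% of all probesets and 3422 of the 14962 above the background level. These were *Spam1* by 2.09, *Acrv1* by 1.68, *Zpbp* by 1.58, *Izumo1* by 1.54, *Acrbp* by 1.06 and *Crisp2* by 0.99, and in each of them both PWD arrays lay above both B6 arrays. The share of all probesets with such a separation was not counted. *Acr* (0.01, 95% interval -0.52 to 0.55), *Zpbp2* (0.21, -0.37 to 0.78) and *Spaca1* (0.38, -0.80 to 1.56) overlapped between the strains and were not called. Both the 6 genes called and those not called included genes of the early and of the late rise.

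The smallest adjusted p-values were those of *Zpbp* (3.00-fold, 1.58 ± 0.15 SE, adjusted p = 0.000258 from limma), *Crisp2* (1.98-fold, 0.99 ± 0.14, adjusted p = 0.00241) and *Acrbp* (2.09-fold, 1.06 ± 0.17, adjusted p = 0.00424). *Izumo1* was 2.92-fold higher (1.54 ± 0.37, adjusted p = 0.0231), *Acrv1* 3.21-fold (1.68 ± 0.46, adjusted p = 0.0378) and *Spam1*, measured against arrays below the background level, at least 2.68-fold (fitted difference 2.09 ± 0.60, adjusted p = 0.0478). *Izumo1*, *Acrv1* and *Spam1* were not called when B6 prepachytene replicate 1, B6 prepachytene replicate 2 or PWD prepachytene replicate 2 was left out, which leaves 3 of 9. *Acrv1* and *Spam1* also missed the threshold without either B6 pachytene array, either B6 spermatid array or either PWD spermatid array, where their differences stayed at 1.68 and 2.09 and the adjusted p rose to at most 0.0778. With only the arrays of the groups compared, *Acrbp* (adjusted p = 0.0947 from limma) and *Spam1* (0.0595) were not called. In the mean of its 2 probesets *Zpbp* was higher by 0.78 (adjusted p = 0.0582).

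Genes of other cells differed in the same arrays. All 15 late spermatid markers had positive differences in prepachytene cells, with a median of 0.68, and 4 were called higher in PWD: *Tnp2* by 1.74, *Prm2* by 1.72, *Oaz3* by 1.34 and *Tnp1* by 1.14. Of 12 Sertoli cell genes 4 were higher and 1 was lower. The median of the 9 acrosome genes was 1.06, that of probesets above the background level 0.25 and that of all probesets -0.01. The part of other cells in the difference of the acrosome genes was not tested.

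**Figure D4:**
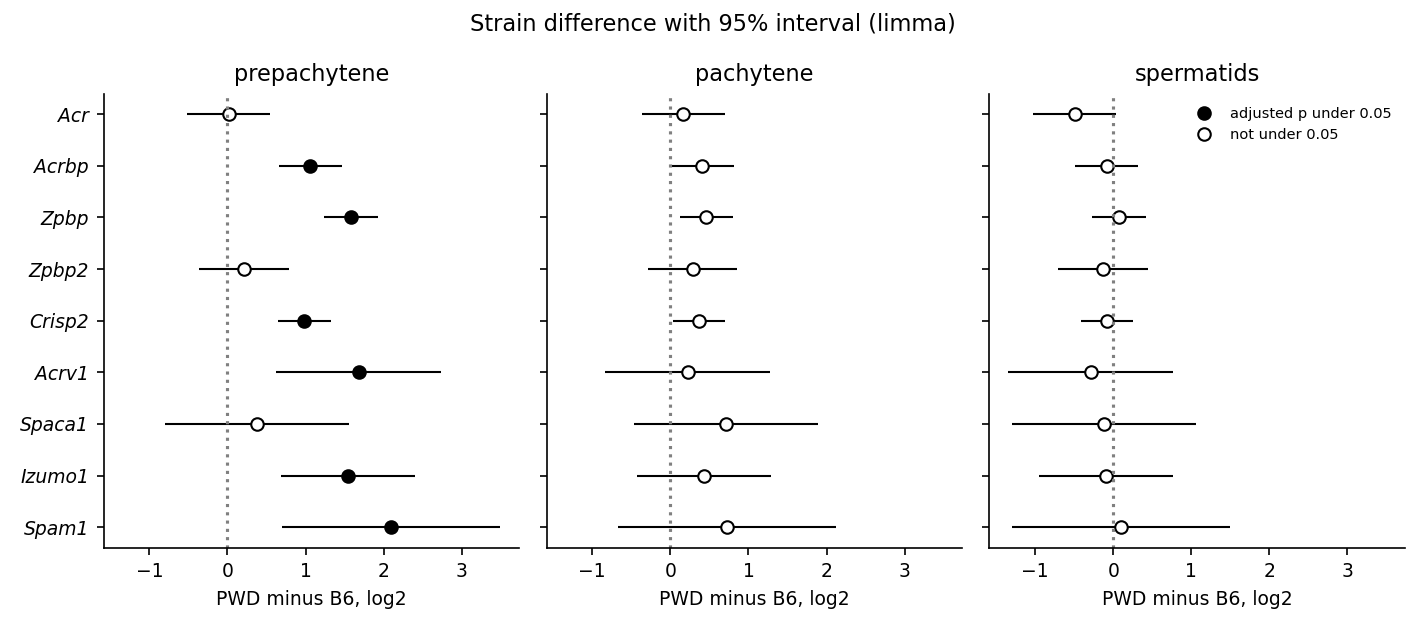
Log2 difference PWD minus B6 (x axis) of the 9 genes (y axis) in prepachytene spermatocytes, pachytene spermatocytes and spermatids, with 95% intervals from limma; filled points had an adjusted p under 0.05. The 6 filled points all lie in prepachytene cells, between 0.99 and 2.09, and in spermatids the points lie between -0.49 and 0.10.

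In pachytene spermatocytes none of the 9 genes differed significantly by limma (12.8% of all probesets did), although 3 had an unadjusted p under 0.05, *Zpbp* (0.46, adjusted p = 0.0849), *Crisp2* (0.37, adjusted p = 0.136) and *Acrbp* (0.41, adjusted p = 0.163). All 9 differences were positive, from 0.16 (*Acr*) to 0.73 (*Spam1*), with a median of 0.41 against 0.36 for probesets above the background level. A positive difference was also found in 35344 of all 45037 probesets and in 10613 of the 14962 above the background level. Both PWD arrays lay above both B6 arrays in *Acrbp*, *Zpbp*, *Zpbp2* and *Crisp2*. How many of all probesets did so was not counted. Without PWD pachytene replicate 1 the differences of *Acrv1* (-0.55), *Spam1* (-0.26), *Izumo1* (-0.20) and *Spaca1* (-0.06) were negative, and none was called. Without PWD pachytene replicate 2 they were 1.00, 1.72, 1.06 and 1.48, and *Izumo1* was called (adjusted p = 0.0418 from limma). In spermatids none differed by limma (11.9% of all probesets did), and 0 had an unadjusted p under 0.05. The intervals were narrowest for *Crisp2* (-0.42 to 0.25) and *Zpbp* (-0.27 to 0.42) and widest for *Spam1* (0.10 ± 0.60 SE). *Acr* was at -0.49 (95% interval -1.03 to 0.04, adjusted p = 0.25), with both PWD arrays below both B6 arrays. All 15 late spermatid markers had negative differences in spermatids, and 4 were called lower in PWD (5.52% of all probesets), *Tnp2*, *Tssk6*, *Tnp1* and *Prm2*.

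Whether the strain difference itself depended on the population was tested with an F test in limma. It did in 3 of 9 genes (16.6% of all probesets), *Zpbp* (adjusted p = 0.00504), *Crisp2* (adjusted p = 0.0242) and *Acrbp* (adjusted p = 0.0391), each with its largest difference in prepachytene cells. The second probeset of *Acrbp*, above the background level in every group, missed the threshold in this test (adjusted p = 0.0515 from limma). *Zpbp* was called without any 1 of the 12 arrays. *Crisp2* was not called without B6 prepachytene replicate 1, B6 spermatids replicate 1 or 2 or PWD prepachytene replicate 2, and *Acrbp* was not without any B6 array, either PWD pachytene array or PWD spermatids replicate 1. The count was 1 without B6 prepachytene replicate 1 or either B6 spermatid array and 5 without PWD pachytene replicate 1. The same F test called 6 of 15 late spermatid markers and 6 of 28 other acrosome and gamete interaction genes. The change into pachytene was smaller in PWD than in B6 by 1.12 for *Zpbp* (1.80 in PWD and 2.92 in B6, SE of the difference 0.21, adjusted p = 0.0129), the only one of 9 called, against 11.7% of all probesets in either direction and 5.40% in this one. With arrays centred, *Crisp2* was called as well, and after repeated quantile normalization so were *Crisp2* and *Acrbp*. Without PWD pachytene replicate 1, *Acrv1*, *Izumo1* and *Spam1* were called too, and without PWD prepachytene replicate 1 *Acrbp* was. For the change into spermatids 0 of 9 were called by limma and 0 had an unadjusted p under 0.05 (3.77% of all probesets were called). All 9 differences were negative, from -0.83 (*Spaca1*) to -0.39 (*Zpbp*), with a median of -0.51. The median was -0.11 over all probesets and -0.25 over those above the background level. Of all 45037 probesets 11468 had a positive difference. Late spermatid markers went the same way, with 0 of 15 positive, a median of -0.71 and 2 called lower. Of the 28 other acrosome and gamete interaction genes 4 were positive, with a median of -0.43 and 0 called.

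Other genes of the acrosome and of gamete interaction, 28 of 30 listed with a probeset, were given the same comparisons. Into pachytene 20 of 28 rose and 2 fell (44.3% and 24.6% of all probesets), and into spermatids 20 rose and 3 fell (12.1% and 18.4%). The largest changes into pachytene were those of *Prss21*, a testis serine protease of the acrosin kind, by 5.17, of *Izumo4* by a fitted 3.97 and of *Spink2*, an inhibitor of acrosomal proteases, by 3.70, and *Tex101*, a germ cell surface protein, fell by 6.16. *Serpina5*, an inhibitor of serine proteases, fell by a fitted 2.81. Its pachytene means (2.66 in B6 and 2.84 in PWD) lay below the background level. With that level in their place the fall was at least 0.20. The prepachytene means of *Izumo4* (4.08 in B6 and 4.60 in PWD) lay below the background level, and with that level in their place its rise was at least 2.95, behind those of *Spink2* and *Zp3r* (3.24). Those into spermatids were the rises of the serine proteases *Prss37* by 4.22 and *Prss55* by 3.85, of *Spaca6*, needed for fusion with the egg, by 4.00 and of *Spaca7* by 3.77, and *Tex101*, *Izumo4* and *Spink2* fell by 2.53, 1.64 and 0.32. Differences into spermatids were 2.38 to 4.22 in 19 genes and -2.53 to 0.58 in the other 9, a division drawn after the values were seen. *Hyal5*, a sperm hyaluronidase related to *Spam1*, was at 7.54 in B6 and 9.42 in PWD prepachytene cells, 10.39 and 11.10 in pachytene cells and 14.27 and 14.26 in spermatids, a course like that of *Spam1*.

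**Figure D5:**
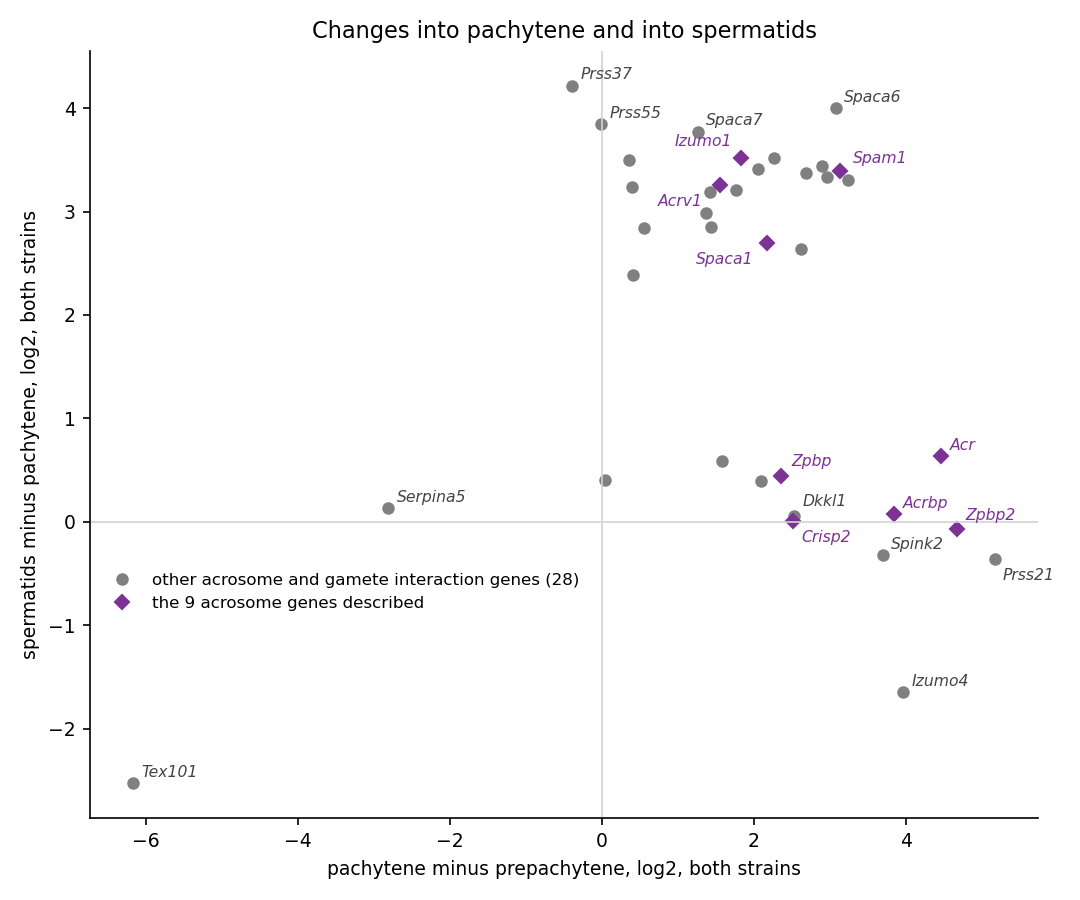
Log2 difference of pachytene from prepachytene spermatocytes (x axis) and of spermatids from pachytene spermatocytes (y axis) over both strains, 1 point per gene, for the 9 acrosome genes (diamonds) and 28 other acrosome and gamete interaction genes (circles). *Acr*, *Acrbp*, *Zpbp*, *Zpbp2* and *Crisp2* lie between 0.63 and -0.07 on the y axis and *Acrv1*, *Spaca1*, *Izumo1* and *Spam1* between 2.70 and 3.52.

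Of these 28 genes 13 were higher in PWD prepachytene cells and 0 lower (11.9% and 6.72% of all probesets). They were *Spaca7* (2.29), *Spaca3* (2.21), *Eqtn* (2.06), *Lyzl6* (2.02), *Lyzl4* (1.97), *Spink2* (1.96), *Prss21* (1.93), *Hyal5* (1.88), *Plcz1* (1.61), *Izumo2* (1.43), *Spesp1* (1.16), *Pcsk4* (1.06) and *Dkkl1* (0.88). *Plcz1* encodes the sperm factor that activates the egg, and *Spaca3* a lysozyme-like protein of the acrosome. In pachytene cells *Spesp1* (0.80) and *Spink2* (0.65) were higher in PWD (8.64% of all probesets), and in spermatids *Izumo4* alone (1.93; 6.36% of all probesets). The B6 prepachytene means of *Spaca7* (5.02) and *Lyzl4* (4.28) lay below the background level, so that their fitted differences are not bounds. *Izumo4* was at 5.70 in B6 and 7.63 in PWD spermatids.

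Relatives of the 9 genes from the same families did not all follow them. Of 16 listed, 14 had a probeset. *Prss21*, *Prss37*, *Prss55*, *Hyal5*, *Izumo2*, *Izumo3*, *Izumo4*, *Spaca3* and *Spaca4* are also in the list of other acrosome and gamete interaction genes above. *Crisp3*, *Crisp4*, *Hyal2*, *Hyal3* and *Hyal4* lay below the background level in every group, with means from 1.90 to 4.48. Among these dim genes *Hyal2* (0.92, prepachytene cells) and *Hyal4* (1.24, pachytene cells) passed the test between the strains. Of the other relatives, *Izumo2* (3.39), *Izumo3* (4.97) and *Izumo4* (2.32) were higher in spermatids than in prepachytene cells, and so were *Spaca3* (4.37) and *Spaca4* (4.61), with fitted differences for *Izumo4* and *Spaca4*, whose B6 prepachytene means (4.08 and 5.01) lay below the background level. *Izumo4* had its highest means in pachytene cells (7.66 in B6 and 8.96 in PWD) and fell by 1.64 into spermatids, whereas *Izumo1*, *Izumo2* and *Izumo3* had theirs in spermatids.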

How the data were processed

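Expression was profiled in sorted testicular cells of PWD and B6 males on 12 Affymetrix arrays, from 15 to 40 ng of RNA each. The authors deposited log2 values of probesets, given as GCRMA values in the submitters' processing notes; its version is not given in the sources used here. GCRMA corrects for background by probe sequence and is meant to equalize the distribution of values over arrays. The deposited values still changed when quantile normalization was repeated. The strain difference of *Spam1* in prepachytene cells went from 2.09 to 1.75, and the change of *Acr* into spermatids in PWD from 0.30 to 0.66. The methods name another array for the normalization step, another summary method (RMA) and another RNA kit than the labels do. The deposited table holds the probesets of the array in the labels, and labels and notes were followed.

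After removal of 64 control probesets, the log2 values of 45037 were fitted in limma 3.58.1 (R 4.3.3) as 6 group means. The variance prior was allowed a trend with expression, and p-values were adjusted over all probesets by the Benjamini-Hochberg method, with a threshold of 0.05. Gene names came from the platform annotation, updated to RefSeq symbols. Of several probesets of a gene the brightest on average stood for it, and values between genes were not compared. Differences are quoted with limma's SE or 95% interval. The named genes were the 9 acrosome genes, the 4 of a further list with the largest change in a comparison and those with a strain difference, and the 3 genes nearest to each member. The members and lists were chosen with earlier results of these data known. Alternatives were repeated quantile normalization, centred arrays, a filter on dim probesets, means of probesets, another variance prior, the replicate number as a block, fits with only the groups compared and leaving out each array. The fit was tested on simulated data. The number of arrays limits the precision. Sequence differences between the strains under the probes were not examined. Plots were drawn in matplotlib 3.10.9, and pandas 2.3.3 and numpy 2.4.6 handled tables under Python 3.11.15.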

Additional observations from a re-analysis of the deposited data

Results flagged for a closer look

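The change of *Zpbp* from prepachytene to pachytene spermatocytes differed between the strains by a direct test: PWD minus B6 was -1.123 on the log2 scale (SE 0.2102, adjusted p = 0.0129 from limma). *Zpbp* was at 9.52 and 9.59 in B6 and 11.03 and 11.25 in PWD prepachytene arrays, and at 12.54 and 12.40 in B6 and 12.97 and 12.90 in PWD pachytene arrays. In the mean of both *Zpbp* probesets, of which one lay below the background level, the difference was -0.92 (adjusted p = 0.116).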

How the results depend on the processing

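The number of acrosome genes called in pachytene against prepachytene cells over both strains stayed at 9 of 9 when each array was left out. The count of the strain difference in prepachytene cells, 6 of 9, ranged from 3 to 6 with 1 array left out (3 without B6 prepachytene replicate 1, B6 prepachytene replicate 2 or PWD prepachytene replicate 2). In pachytene cells the count ranged from 0 to 1 (1, *Izumo1*, without PWD pachytene replicate 2, and 1, *Zpbp*, without PWD spermatids replicate 1 or 2). For the strain difference that depends on the population, 3 of 9, the range was 1 to 5 (1 without B6 spermatids replicate 1, B6 spermatids replicate 2 or B6 prepachytene replicate 1, and 5 without PWD pachytene replicate 1), and 5 were called when only probesets above the background level were tested, where fewer tests are adjusted for. The count into spermatids in PWD was 1 in place of 4 with only the arrays of the groups compared. With only probesets above the background level, 4 in place of 2 other acrosome genes differed between the strains in pachytene cells, 2 in place of 1 in spermatids, and 11 in place of 6 by population. With the replicate number as a replicate block 4 of 9 genes differed between the strains in prepachytene cells, without *Acrv1* (adjusted p = 0.0532) and *Spam1* (0.0726), and no other call changed. Deviations of same-numbered arrays correlated by -0.28 to 0.10. Because a number is not tied to an animal, these values cannot show whether arrays of different groups share an animal. *Zpbp* turned sign by its dim probeset, in spermatids against pachytene cells over both strains (-0.4341) and in B6 (-0.7789) and between the strains in prepachytene cells (-0.0319), and in the mean of its probesets in B6 (-0.0723). The cause of these changes was not tested.

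Of 2088 single values under an alternative, 2004 kept their side of the threshold and, where called, their direction. Values not called under either setting are among these also where their sign changed. Before centring, the array medians of probesets above the background level differed by 0.26 and 0.31 (PWD minus B6) in prepachytene and pachytene cells. Into pachytene cells and into spermatids they differed by -0.25 and -0.26. Centring removes these differences, so that it moves the values of the genes the opposite way. After centring 6 of 9 genes were still called between the strains in prepachytene cells, and 4 after repeated quantile normalization.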
